A study of Caenorhabditis elegans with 18 samples.

Results

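The hermaphrodite worm Caenorhabditis elegans makes sperm first and oocytes afterwards from one germline, and 10 genes of the pathway that decides between those fates are described here: fog-1, fog-2, fog-3, fem-1, fem-3, tra-1, tra-2, gld-1, fbf-1 and fbf-2. They were chosen by name as germline sex determination genes, and all 10 were found among the 23368 genes of the count table. RNA was sequenced from whole animals at the early adult stage, with 3 libraries in each of 6 groups. The nhr-45 animals carried allele tm1307, the nhr-178 animals carried allele gk1005, both in genes for nuclear hormone receptors, and the wild type (WT) was strain N2. From the first larval stage, each genotype grew on the bacterium Escherichia coli HT115 with 0.3 µM antimycin A, an inhibitor of mitochondrial complex III dissolved in DMSO, or with DMSO alone. The animals hold soma and germline together, so fewer germ cells and less RNA per germ cell cannot be told apart in any value below.

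The pathway is a chain of inhibitions. TRA-2, a membrane protein, holds back the FEM proteins. These, with the CUL-2 ubiquitin ligase, lead to the breakdown of TRA-1, the transcription factor that promotes female fates. In germ cells that make sperm, FOG-2 and GLD-1 block translation of tra-2 mRNA, and FOG-1 and FOG-3 act at the end of the chain to direct spermatogenesis. The switch to oocytes needs FBF-1 and FBF-2, RNA-binding proteins that repress fem-3 mRNA and others. Much of this control acts on translation or on protein stability, which mRNA counts do not measure.

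Total counts per library ranged from 1772887 in nhr-45 animals on antimycin (replicate 2) to 9488037 in WT animals on DMSO (replicate 3). Levels are given as CPM, counts scaled to equal library size with a correction for composition (TMM). The p-values come from the quasi-likelihood test of edgeR over 10981 genes that passed a filter on low counts. They are adjusted over all of these genes, a gene is called below 0.05, and fold changes are log2 values with their standard error (SE). The p-values measure the spread between samples that the series text calls biological triplicates. The nhr-45 transcript averaged 6.31 ± 1.38 CPM in nhr-45 animals on antimycin and 7.19 ± 0.799 CPM in WT animals on antimycin (SD, n = 3 each), so its count did not separate the genotypes. A deletion can leave transcript outside the deleted part. For nhr-178, at most 22 counts fell on the 3 libraries of any group, too few to test.

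Of the 10 regulators, 9 passed the filter and were tested, and fog-3 did not. Per kilobase of annotated exon, the mean level over the 18 libraries was highest for gld-1, at 232 CPM per kilobase, followed by fem-1 at 96.4. fem-3 stood at 41.9, fog-1 at 33.3, fog-2 at 29.3 and tra-1 at 25.9 CPM per kilobase. fbf-1 had 15.6, fbf-2 had 7.42, tra-2 had 5.61 and fog-3 had 0.422 CPM per kilobase. The 2 genes of the list at the lowest levels per length were thus fog-3, which is needed for sperm fate, and tra-2, which is on the oocyte side.

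**Figure D1:**
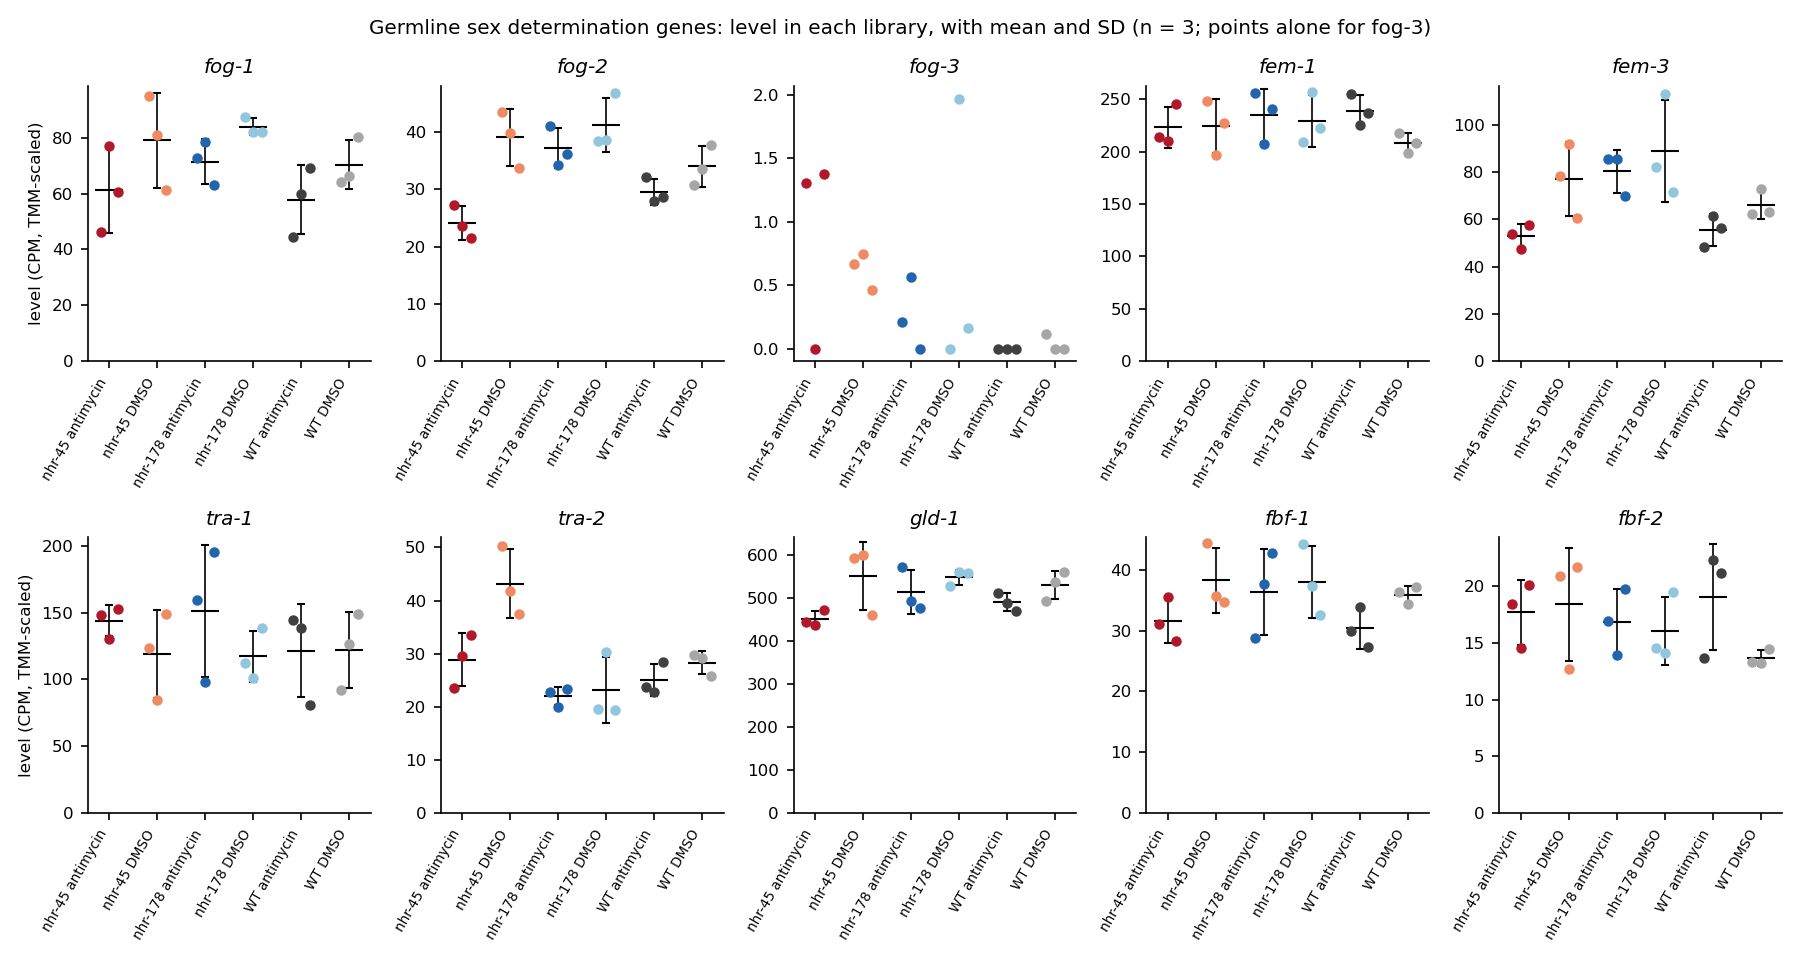
Level of each of the 10 regulators in each library, in CPM (vertical axis) for the 6 groups (horizontal axis). Points are libraries and bars are the mean and SD of 3 libraries, with points alone for fog-3, which had 52 counts in all. fog-2, fem-3 and tra-2 have no overlap between nhr-45 animals on antimycin and nhr-45 animals on DMSO.

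In nhr-45 animals antimycin lowered 3 of the 9 tested regulators, fog-2, tra-2 and fem-3, and raised none. Over all tested genes, 23.5% were called in this comparison, 8.33% lower and 15.2% higher. The median log2 change of the 9 was -0.30, against 0.00 over all tested genes, and 8 of the 9 values lay below zero. The 9 include genes that favour sperm and genes that favour oocytes. In this comparison 14.9% of all tested genes had antimycin libraries that all lay below the DMSO libraries, and among the 9 regulators the same held for fog-2, fem-3 and tra-2.

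The genes that favour sperm are taken first. fog-2 encodes an F-box protein that works with GLD-1 on tra-2 mRNA in the hermaphrodite germline. In the reference annotation WBcel235 it lies on chromosome V, bases 20199254 to 20200648. It measured 27.2, 23.7 and 21.4 CPM in nhr-45 animals on antimycin, against 43.5, 39.8 and 33.8 CPM in nhr-45 animals on DMSO. The antimycin libraries all lay below the DMSO libraries, with a log2 change of -0.69 ± 0.17 (SE, adjusted p = 0.00473). The same treatment gave 41.1, 34.3 and 36.2 CPM in nhr-178 animals on antimycin, against 38.4, 38.6 and 46.7 CPM in nhr-178 animals on DMSO. WT animals had 32.2, 28.01 and 28.6 CPM on antimycin, against 30.7, 33.5 and 37.8 CPM on DMSO. Neither of these changes was called, at -0.15 ± 0.17 in nhr-178 (adjusted p = 0.801) and -0.21 ± 0.17 in WT (adjusted p = 0.637), and the groups overlapped in both.

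The fall of fog-2 was not shown to differ between genotypes. The interaction, the response in nhr-45 minus that in WT, was -0.49 ± 0.24 (adjusted p = 0.278), and the response in nhr-45 minus that in nhr-178 was -0.54 ± 0.24 (adjusted p = 0.209). fog-2 kept its call when each library of the comparison was left out in turn, with log2 changes from -0.81 to -0.59. It lost the call when libraries were scaled to equal counts of general germline genes in place of all genes, where the change was -0.23 (adjusted p = 0.308). fog-2 has a near-identical neighbour, ftr-1, 1012 bases away, and how the authors' counting split reads between such copies is not given in the sources used here. With the counts of fog-2 and ftr-1 added together, the change was -0.70 (adjusted p = 0.00311).

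fem-3, which drives germ cells towards sperm and is a target of FBF, lies on chromosome IV, bases 9104966 to 9107607. It had 53.8, 47.3 and 57.6 CPM in nhr-45 animals on antimycin, against 78.2, 91.9 and 60.8 CPM in nhr-45 animals on DMSO. All antimycin libraries were below all DMSO libraries, though 57.6 and 60.8 CPM lie close together, and the change was -0.53 ± 0.18 (adjusted p = 0.0305). In WT animals fem-3 measured 48.1, 61.5 and 56.5 CPM on antimycin, against 62.4, 72.8 and 63.1 CPM on DMSO. These groups did not overlap either, but the change of -0.25 ± 0.18 was not called (adjusted p = 0.564). nhr-178 animals had 85.5, 85.6 and 69.8 CPM on antimycin, against 82.3, 113.1 and 71.7 CPM on DMSO, with no call (-0.15 ± 0.17, adjusted p = 0.815). The call in nhr-45 was lost without replicate 1 or 2 of nhr-45 on DMSO (adjusted p = 0.0730 and 0.154) and without replicate 1 or 2 of nhr-45 on antimycin (adjusted p = 0.0695 and 0.108). It was also lost in the fit of the compared groups alone, without the 2 shallowest libraries and under the germline scaling (-0.07).

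fem-1, a substrate adaptor of the CUL-2 ligase, lies on chromosome IV, bases 5533140 to 5537962. Its level was nearly flat, with a ratio of 1.15 between the highest and lowest group means. It averaged 223 ± 19.6 CPM in nhr-45 animals on antimycin and 224 ± 25.8 CPM in nhr-45 animals on DMSO (SD, n = 3 each), a log2 change of 0.00 ± 0.13 with a 95% interval of -0.26 to 0.25. In WT it averaged 239 ± 14.6 CPM on antimycin and 208 ± 9.54 CPM on DMSO, where the groups did not overlap and the change of 0.20 ± 0.13 was not called (adjusted p = 0.499). Under the germline scaling, which shifts the median of all tested genes by 0.46 in nhr-45, fem-1 was called higher, at 0.46 (adjusted p = 0.00663), which equals that shift.

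fog-1, which encodes an RNA-binding protein of the CPEB family needed for sperm fate, lies on chromosome I, bases 3211046 to 3217267. It had 46.4, 76.9 and 60.6 CPM in nhr-45 animals on antimycin, against 94.8, 80.97 and 61.2 CPM in nhr-45 animals on DMSO. The groups overlapped and the change of -0.40 ± 0.19 was not called (adjusted p = 0.125). Without replicate 3 of nhr-45 on DMSO it was -0.56, and without the 2 shallowest libraries -0.55, and edgeR called fog-1 lower in both of those fits. In WT and nhr-178 the responses to antimycin were -0.27 ± 0.19 (adjusted p = 0.550) and -0.23 ± 0.18 (adjusted p = 0.694).

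fog-3, a Tob-family gene needed for sperm fate, lies on chromosome I, bases 10016765 to 10018121, and had few reads. Its counts were 11, 0 and 8 in nhr-45 animals on antimycin, against 5, 5 and 2 in nhr-45 animals on DMSO. The library with 0 is the shallowest of the 18. nhr-178 animals had 1, 5 and 0 counts on antimycin, against 0, 13 and 1 on DMSO, so 1 library held nearly all the counts of the DMSO group. WT animals had no count in any of the 3 antimycin libraries, against 1, 0 and 0 on DMSO. Summed over the libraries of a group, fog-3 had 19 counts in nhr-45 animals on antimycin and 0 counts in WT animals on antimycin. With the 0 taken at a floor of 3 counts over the group, the ratio was 6.1. That value leaves out the counting error of the 19 and their spread between libraries, so it is not a lower bound. In a fit with no filter on low counts edgeR called fog-3 higher in nhr-45 than in WT on antimycin (adjusted p = 0.0204), where 6.3% of 19659 genes were called higher. Between nhr-45 animals on antimycin and on DMSO the ratio was 1.82, with an exact 95% interval of 0.837 to 4.10 that covers counting error only. fog-3 was called in no other comparison of that fit. Against WT on DMSO, with 1 count, nhr-45 animals on DMSO gave a ratio of 16.4 (2.43 to 701) and nhr-178 animals on DMSO gave 20.6 (3.13 to 870.0).

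Of the genes on the oocyte side, tra-2 lies on chromosome II, bases 6955384 to 6965673. It measured 23.5, 29.6 and 33.5 CPM in nhr-45 animals on antimycin, against 50.2, 41.8 and 37.5 CPM in nhr-45 animals on DMSO. No libraries overlapped, and the change was -0.59 ± 0.20 (adjusted p = 0.0288). nhr-178 animals had 22.7, 20.0 and 23.3 CPM on antimycin, against 19.5, 30.3 and 19.5 CPM on DMSO, and WT animals had 23.7, 22.8 and 28.4 CPM on antimycin, against 29.8, 29.2 and 25.8 CPM on DMSO. The DMSO libraries of nhr-45 were thus the highest of all 6 groups. In DMSO, tra-2 was 0.62 ± 0.19 higher in nhr-45 than in WT, with no overlap, but this did not pass over all genes (adjusted p = 0.127). In antimycin the same contrast was 0.19 ± 0.20 (adjusted p = 0.606).

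The call of tra-2 depended on single libraries. The adjusted p was 0.142 without replicate 1 of nhr-45 on DMSO, and 0.161 and 0.0568 without replicates 1 and 2 of nhr-45 on antimycin. It was 0.0689 in the fit of the compared groups alone and 0.0605 without the 2 shallowest libraries, and the change was -0.12 under the germline scaling. The 26 bases shared with ceh-38 on the opposite strand make up 0.514% of the exon length of tra-2, and the use of strand in counting is not given in the sources used here.

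tra-1, which encodes the transcription factor that promotes female fates, lies on chromosome III, bases 11170890 to 11195201. It measured 149, 131 and 153 CPM in nhr-45 animals on antimycin, against 124, 84.3 and 149 CPM in nhr-45 animals on DMSO. Its spread within groups was wide, from 97.8 to 196 CPM in nhr-178 animals on antimycin. The response in nhr-45 was 0.28 ± 0.23 (adjusted p = 0.397), in nhr-178 0.36 ± 0.23 (adjusted p = 0.588) and in WT -0.02 ± 0.23 (adjusted p = 0.989). Under the germline scaling tra-1 was called higher in nhr-45, at 0.74 (adjusted p = 0.0127), with the 0.46 shift of all genes included.

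gld-1, whose protein binds many germline mRNAs including tra-2 and also promotes entry into meiosis, lies on chromosome I, bases 7695681 to 7698222. It had 444, 439 and 472 CPM in nhr-45 animals on antimycin, against 595, 601 and 460.1 CPM in nhr-45 animals on DMSO. The groups overlapped through 1 DMSO library, and the change of -0.29 ± 0.12 missed the threshold (adjusted p = 0.0733). Without that library, replicate 3 of nhr-45 on DMSO, gld-1 was called at -0.42. In the other genotypes the change was small, at -0.09 ± 0.12 in nhr-178 (adjusted p = 0.829) and -0.11 ± 0.12 in WT (adjusted p = 0.729).

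fbf-1 and fbf-2 encode nearly identical PUF proteins and lie 8019 bases apart on chromosome II, at 6078263 to 6080843 and 6088863 to 6091480, so reads could be split between them. fbf-1 averaged 31.6 ± 3.62 CPM in nhr-45 animals on antimycin and 38.3 ± 5.39 CPM in nhr-45 animals on DMSO (SD, n = 3 each), a change of -0.30 ± 0.18 (adjusted p = 0.251). fbf-2 averaged 17.7 ± 2.86 CPM in nhr-45 animals on antimycin and 18.4 ± 4.98 CPM in nhr-45 animals on DMSO (-0.02 ± 0.23, adjusted p = 0.963). With both summed, the change was -0.21 (adjusted p = 0.363). In WT fbf-2 had 13.7, 22.3 and 21.2 CPM on antimycin, against 13.3, 13.2 and 14.5 CPM on DMSO. The groups overlapped, and the change of 0.50 ± 0.23 was not called (adjusted p = 0.307).

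**Figure D2:**
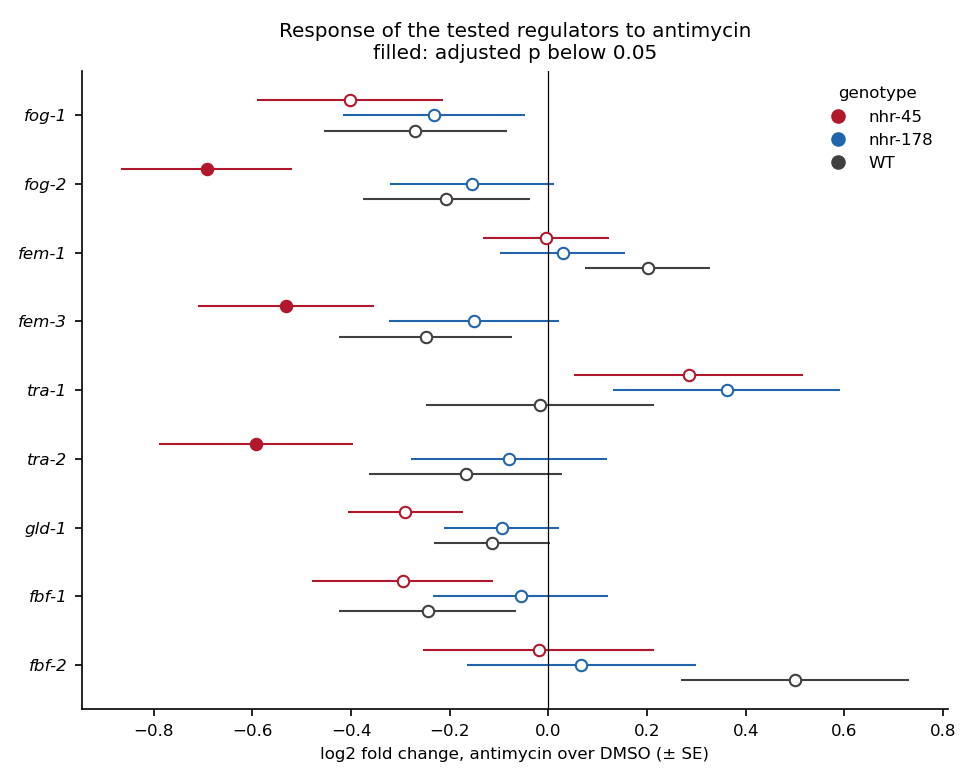
Log2 fold change of antimycin over DMSO (horizontal axis, with SE) for the 9 tested regulators in nhr-45, nhr-178 and WT animals. Filled points have an adjusted p below 0.05, which holds for fog-2 (-0.69), tra-2 (-0.59) and fem-3 (-0.53) in nhr-45.

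In the other 9 comparisons edgeR called 0 of the 9 regulators, and so did DESeq2. Among all tested genes, the share called was 2.70% for antimycin in nhr-178 animals and 3.01% for antimycin in WT. Between genotypes, 15.1% were called for nhr-45 against WT in antimycin, 3.63% for nhr-178 against WT in antimycin, 1.54% for nhr-45 against WT in DMSO and 1.15% for nhr-178 against WT in DMSO. The background was 4.68% for the interaction of nhr-45 with antimycin, 0.264% for that of nhr-178, and 5.76% for the response in nhr-45 against that in nhr-178. At an unadjusted p below 0.05, 1 regulator passed for antimycin in WT (fbf-2), for nhr-178 against WT in antimycin (fem-3), for nhr-45 against WT in DMSO (tra-2), for nhr-178 against WT in DMSO (fem-3) and for the nhr-45 against the nhr-178 response (fog-2), and 0 in the other 4. Over all tested genes the shares at that threshold were 14.5%, 15.6%, 10.9%, 10.1% and 19.3% in those 5 comparisons, in the same order, so 1 of 9 regulators is near or below the background. The nhr-45 animals on antimycin thus showed no called difference from WT animals on antimycin in any tested regulator, with log2 differences from -0.28 to 0.26. Some regulators had groups that did not overlap in these comparisons, where 7.56% to 12.8% of all tested genes did the same in the same direction. In antimycin, fog-2 was below WT in nhr-45 (background 12.8%), and fog-2 and fem-3 were above WT in nhr-178 (9.84%). In DMSO, tra-2 was above WT in nhr-45 (7.56%), and fog-1 and fog-2 were above WT in nhr-178 (7.66%). Antimycin libraries lay below DMSO libraries for fog-1 in nhr-178 (8.19%) and for fem-3 and fbf-1 in WT (9.39%), and above them for fem-1 in WT (10.7%). fem-3 was 0.53 ± 0.18 higher in nhr-178 than in WT animals on antimycin, without overlap, but was not called (adjusted p = 0.102).

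The order of the groups by mean level was seldom resolved. For fog-1, fem-1, tra-1, gld-1, fbf-1 and fbf-2, and for fog-3, each of the 5 neighbouring pairs of groups in that order overlapped. fog-2, fem-3 and tra-2 each had 1 neighbouring pair without overlap. The same count was not made over all tested genes, so it does not set these regulators apart from other genes. The ratio of the highest to the lowest group mean was 1.960 for tra-2, between nhr-45 on DMSO and nhr-178 on antimycin. It was 1.71 for fog-2 and 1.68 for fem-3, both between nhr-178 on DMSO and nhr-45 on antimycin.

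Ratios of regulators with opposing roles were taken within each library, which removes the scaling. fem-3 over tra-2 was 3.76, 4.28 and 2.99 in nhr-178 animals on antimycin and 4.21, 3.73 and 3.68 in nhr-178 animals on DMSO. nhr-45 animals had 2.29, 1.60 and 1.72 on antimycin and 1.56, 2.20 and 1.62 on DMSO. WT animals had 2.03, 2.69 and 1.99 on antimycin and 2.10, 2.49 and 2.45 on DMSO. All 6 nhr-178 libraries, from 2.99 to 4.28, lay above the other 12, from 1.56 to 2.69. How often pairs among all tested genes separate nhr-178 in this way was not counted. gld-1 over tra-2 ran from 14.1 to 18.8 in nhr-45 animals on antimycin and from 11.8 to 14.4 in nhr-45 animals on DMSO, against 16.6 to 21.6 in WT animals on antimycin and 16.6 to 21.7 in WT animals on DMSO.

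These ratios were chosen after their values had been seen, so the tests on them are given for completeness and support nothing. Of 9 two-sided exact permutation tests over libraries, 3 ratios by 3 contrasts, 2 had an adjusted p below 0.05. They were fem-3 over tra-2 for nhr-178 against WT within treatments (mean log2 difference 0.72, exact permutation p = 0.005, the smallest it can give, adjusted p = 0.045) and gld-1 over tra-2 for nhr-45 against WT (-0.44, exact permutation p = 0.01, adjusted p = 0.045). For antimycin against DMSO within genotypes, fem-3 over tra-2 differed by -0.04 (exact permutation p = 0.710, adjusted p = 0.799).

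**Figure D3:**
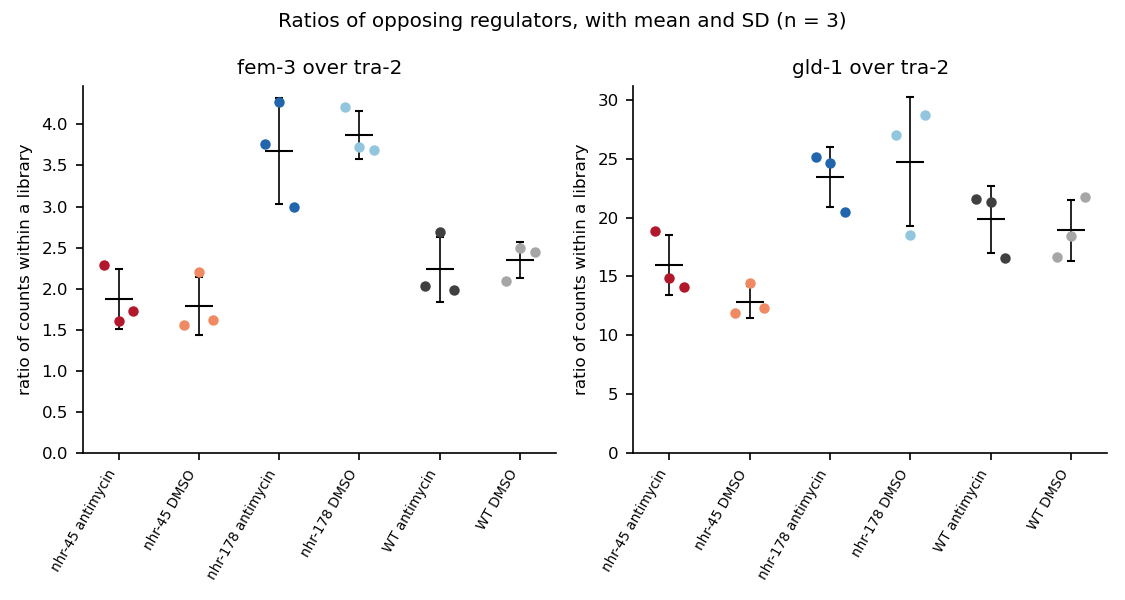
Ratio of counts within each library (vertical axis) of fem-3 over tra-2 and of gld-1 over tra-2, for the 6 groups. Points are libraries and bars are the mean and SD of 3 libraries. The 6 nhr-178 libraries lie above the other 12 for fem-3 over tra-2, a ratio chosen after its values had been seen.

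The summed level of 29 genes for major sperm proteins, which form the cytoskeleton and signal of mature sperm, was 767 ± 79.8 CPM in nhr-45 animals on antimycin and 126 ± 28.5 CPM in nhr-45 animals on DMSO (SD, n = 3 each). It was 16.7 ± 6.43 CPM in nhr-178 animals on antimycin and 3.41 ± 3.56 CPM in nhr-178 animals on DMSO, and 55.2 ± 12.2 CPM in WT animals on antimycin and 26.3 ± 9.58 CPM in WT animals on DMSO. Of these genes 23 were tested, and antimycin raised 22 in nhr-45, against 15.2% of all tested genes. Many of the 23 passed the filter through the nhr-45 antimycin libraries, so this count is a description. Their median log2 change was 2.71 in nhr-45, 2.53 in nhr-178 and 1.12 in WT. Antimycin raised 2 of the 23 in nhr-178 and 0 in WT, where 2.70% and 3.01% of all tested genes were called. The response in nhr-45 minus that in nhr-178 was called for 0 of the 23, against 5.76% of all tested genes. The nhr-178 DMSO libraries held only 3 to 49 counts each over the 29 genes.

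The sperm genes did not all follow. msp-59 had 30.1, 48.4 and 44.9 CPM in nhr-45 animals on antimycin, against 3.06, 4.92 and 3.26 CPM in nhr-45 animals on DMSO (3.42 ± 0.36, adjusted p = 4.4e-08). gsp-3, a sperm-specific phosphatase, had 74 counts over the nhr-45 antimycin libraries, against 12 over the nhr-45 DMSO libraries, and its close relative gsp-4 had 86 against 17. fer-1, needed for sperm membrane fusion, had 27 counts over the nhr-45 antimycin libraries, 19 of them in 1 library, against 7 over the nhr-45 DMSO libraries. spe-44, a transcription factor of early spermatogenesis, had 3.43, 0.00 and 8.58 CPM in nhr-45 animals on antimycin, against 4.93, 7.16 and 4.89 CPM in nhr-45 animals on DMSO, and was not called (-0.29 ± 0.45, adjusted p = 0.683). spe-9, a sperm surface protein, had no count in any of the 18 libraries. Of the 35 spermatogenesis genes other than those for major sperm proteins, 15 passed the filter. In nhr-45 on antimycin 9 of the 15 were called higher, against 15.2% of all tested genes. Without replicate 3 of nhr-45 on antimycin 6 were called higher. This count is a description too, since members such as gsp-3 and gsp-4 had few counts outside the nhr-45 antimycin libraries.

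cpb-2, a relative of fog-1 in the CPEB family, was also higher in nhr-45 on antimycin. It had 18, 9 and 12 counts in nhr-45 animals on antimycin, against 1, 1 and 1 in nhr-45 animals on DMSO. The other 12 libraries held 2 counts between them, both in WT. The ratio of summed counts was 14.9, with an exact 95% interval of 4.74 to 75.4 for counting error. cpb-2 passed the filter on low counts through the nhr-45 antimycin libraries, so its values are a description.

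**Figure D4:**
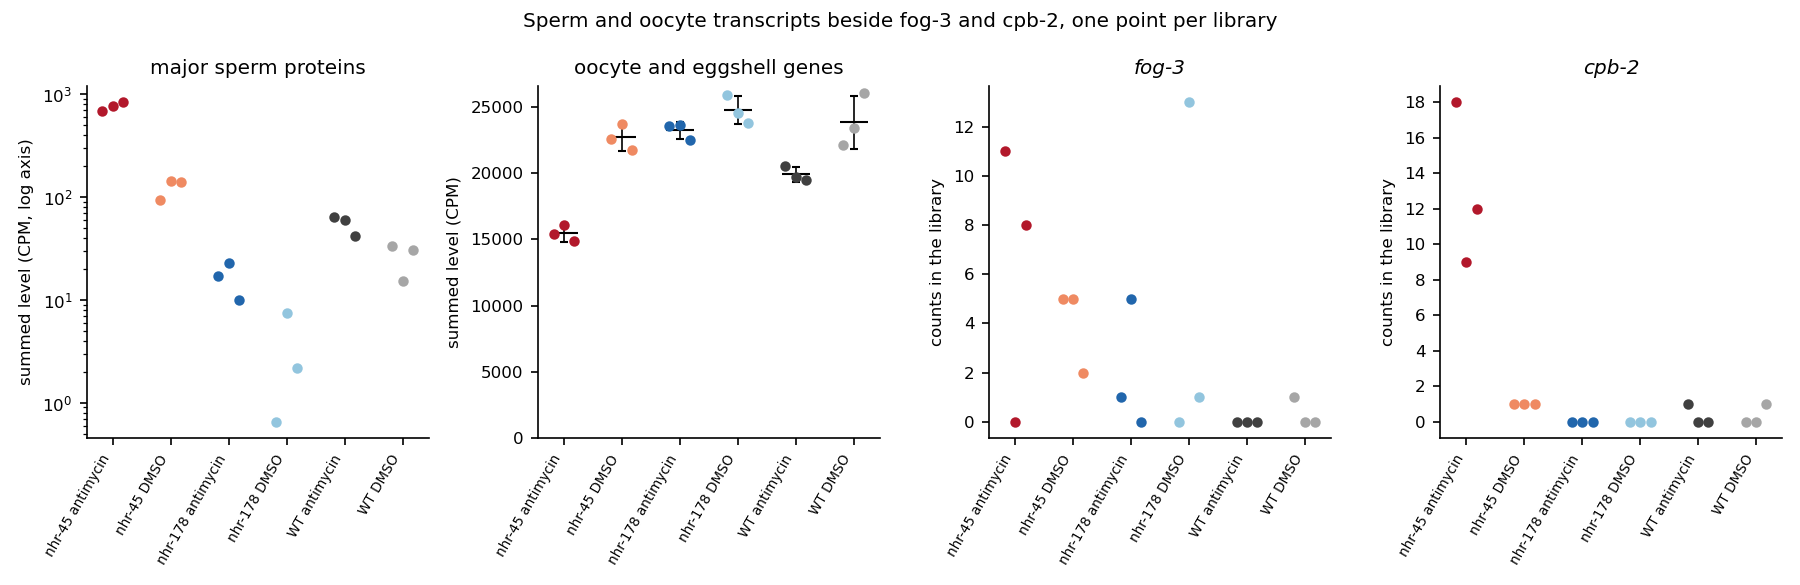
Summed level of the major sperm protein genes (log axis) and of the oocyte and eggshell genes, both in CPM, beside the counts of fog-3 and cpb-2. Each panel has 1 point per library in each of the 6 groups. Bars, drawn for the oocyte and eggshell genes alone, are the mean and SD of 3. The nhr-45 antimycin libraries are highest for the major sperm proteins and cpb-2 and lowest for the oocyte genes.

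Over all tested genes antimycin in nhr-45 lowered 8.33% and raised 15.2%, with a median log2 change of 0.00. Of 29 tested germline RNA regulators, antimycin lowered 10 in nhr-45, 1 was higher (cpb-2) and 18 were not called. Their median log2 change was -0.42. The 10 were the CPEB gene cpb-1 (-0.71), the PUF gene puf-8 (-0.75), the splicing factor genes mog-5 (-0.66) and prp-17 (-0.45), gls-1 (-0.55), which encodes a partner of GLD-3, the Notch targets sygl-1 (-0.53) and lst-1 (-0.48), nos-3 (-0.46), a Nanos relative that works with FBF, gld-3 (-0.44) and the poly(A) polymerase gene gld-2 (-0.43). glp-1, the germline Notch receptor, was not called (-0.35 ± 0.21, adjusted p = 0.231). Without replicate 1 of nhr-45 on DMSO 5 of the list were lower, without replicate 1 of nhr-45 on antimycin 6, and under the germline scaling none was, while 3 were higher. With TMM scaling, the interaction of nhr-45 with antimycin was called for 0 of the 29, against 4.68% of all tested genes.

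Upstream of the switch, 10 of 12 genes were tested and 2 were lower in nhr-45 on antimycin, against 8.33% of all tested genes. fem-2, a phosphatase that acts with FEM-1 and FEM-3, had 369.8, 424 and 364 CPM in nhr-45 animals on antimycin, against 529.8, 578 and 424 CPM in nhr-45 animals on DMSO (-0.41 ± 0.12, adjusted p = 0.0141). sel-10, an F-box gene, gave -0.44 ± 0.15 (adjusted p = 0.0287). Leaving out replicate 1 of nhr-45 on DMSO, or replicate 1 of nhr-45 on antimycin, removed both calls, and 1 call was left without replicate 2 or 3 of nhr-45 on antimycin. With all libraries, the interaction of nhr-45 with antimycin was called for 0 of the 10, against 4.68% of all tested genes. her-1, the male signal that binds TRA-2, averaged 1.64 ± 1.005 CPM in nhr-45 animals on antimycin and 2.53 ± 0.735 CPM in nhr-45 animals on DMSO and was not called (adjusted p = 0.327). tra-3, a protease that processes TRA-2, gave -0.04 ± 0.32 (adjusted p = 0.940), and xol-1 did not pass the filter.

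Of 32 oocyte and eggshell genes, 26 were lower in nhr-45 on antimycin, with a median of -0.53. Of 19 general germline genes 11 were lower, with a median of -0.48. The share over all tested genes was 8.33%. The yolk receptor gene rme-2 gave -0.74 ± 0.14, the oocyte maturation genes oma-1 and oma-2 gave -0.49 ± 0.12 and -0.55 ± 0.12, lin-41 gave -0.47 ± 0.16 and the eggshell gene cbd-1 gave -0.69 ± 0.14, and edgeR called all of these lower. The germ granule genes pgl-1 and glh-1 were not called, at -0.19 ± 0.17 (adjusted p = 0.429) and -0.32 ± 0.16 (adjusted p = 0.158). The summed oocyte level was 14852 to 16090 CPM in nhr-45 animals on antimycin, against 21796 to 23755 CPM in nhr-45 animals on DMSO, with no overlap. Of the general germline genes, 4 were lower without replicate 1 of nhr-45 on DMSO or without replicate 3 of nhr-45 on antimycin. In the fit of the compared groups alone 6 of them were lower. None of either list was lower under the germline scaling. That scaling holds the summed counts of the general germline genes equal between libraries, so that list as a whole could not fall under it. With TMM scaling, antimycin in WT lowered 3 of the 32 oocyte genes (median -0.23) and 1 of the 19 general germline genes (median -0.11). Over all tested genes 3.01% were called in WT, in either direction. The summed oocyte level in WT was 19532 to 20570 CPM on antimycin, against 22126 to 26043 CPM on DMSO, also with no overlap. The interaction of nhr-45 with antimycin was called lower for 1 of the 32 and 1 of the 19. Its share over all tested genes was 4.68%, in either direction.

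**Figure D5:**
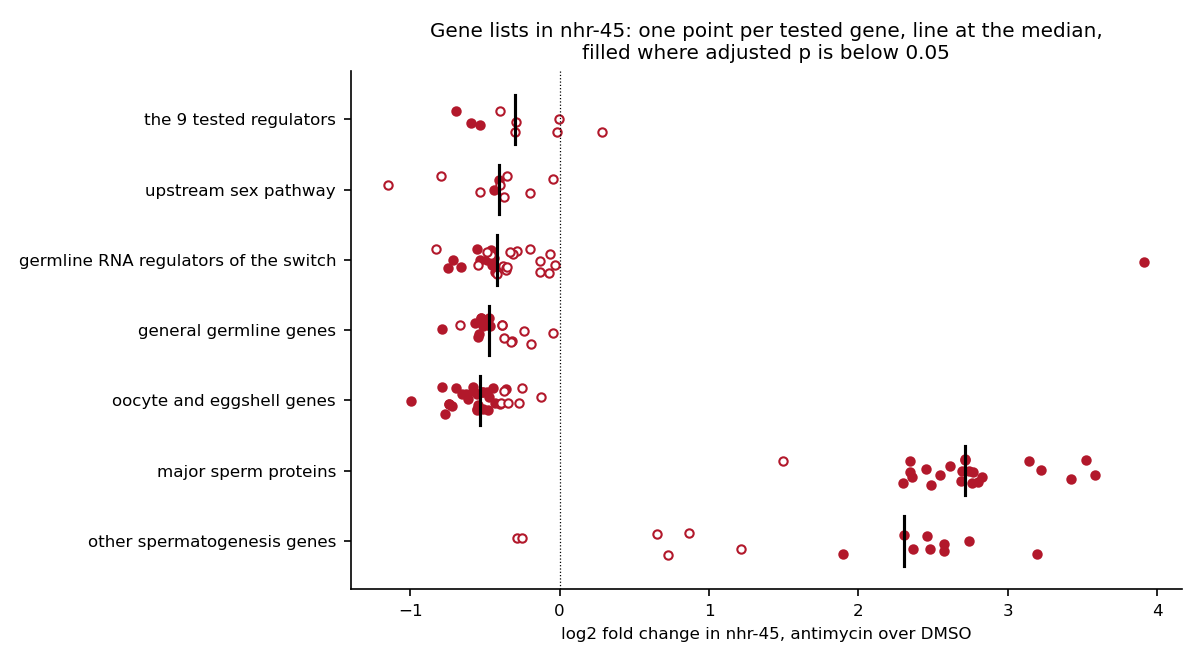
Log2 fold change of antimycin over DMSO in nhr-45 animals (horizontal axis) for each tested gene of 7 lists, with a line at the median and filled points where the adjusted p is below 0.05. Medians are -0.30 for the 9 tested regulators, -0.42 for the germline RNA regulators and -0.53 for the oocyte and eggshell genes.

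Among mRNAs known to be bound by GLD-1, 11 of 13 were lower in nhr-45 on antimycin, with a median of -0.49, and 7 were lower without replicate 1 of nhr-45 on DMSO, without replicate 2 of nhr-45 on antimycin or without the 2 shallowest libraries. Of the 13, 6 are also in the oocyte list, and tra-2 is 1 of the 13. Among mRNAs known to be bound by FBF, 2 of 11 were lower, with a median of -0.29, and 3 of the 11 are fem-3, fog-1 and gld-1. The share of all tested genes called lower was 8.33%. Without replicate 3 of nhr-45 on DMSO, 5 of the 11 were lower, while 1 was lower without replicate 1 or 2 of nhr-45 on DMSO, and 1 without replicate 1 or 2 of nhr-45 on antimycin. Under the germline scaling none of either list was lower, and 1 of the FBF list was higher. With TMM scaling, the interaction of nhr-45 with antimycin was called for 0 of the 13 and 0 of the 11. Its share over all tested genes was 4.68%.

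Markers of other tissues and stages were read in the same libraries. Over all tested genes 15.2% rose in nhr-45 on antimycin and 8.33% fell, while of 14 tested moulting and cuticle genes 13 rose. Their summed level was 1364 to 2114 CPM in nhr-45 animals on antimycin, against 233 to 315 CPM in nhr-45 animals on DMSO. The intestine list summed to 5630 to 6291 CPM in nhr-45 animals on antimycin, against 7959 to 11415 CPM in nhr-45 animals on DMSO. Its genes went both ways, since 6 of 14 were lower, all of them yolk protein genes (vit-1 to vit-6), and 5 were higher, among them cpr-1 (1.81) and ifb-2 (1.65). The somatic gonad list summed to 710 to 856 CPM in nhr-45 animals on antimycin, against 647 to 1039 CPM in nhr-45 animals on DMSO, where the groups overlapped and 1 of 9 genes was higher and 2 were lower. Their part in the regulators' changes was not tested. Genes that mark the male soma were near zero, since none of 11 passed the filter and they summed to 5 to 8 counts per library in nhr-45 animals on antimycin and 5 to 16 counts in nhr-45 animals on DMSO. lov-1, pkd-2, cil-7 and klp-6 of the male nervous system each had 1 count in the 18 libraries.

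Patterns across the 18 libraries were compared by Pearson's correlation of log2 CPM, as a description, since the libraries share groups and depth. fog-2 was most like zif-1 (r = 0.889), grif-1 (r = 0.885) and egg-3 (r = 0.885), the last of which acts in egg activation. fog-1 was most like gldi-2 (0.886), F54D10.5 (0.875) and ubh-4 (0.852), and fem-3 like atg-18 (0.913), hop-1 (0.878) and mbtr-1 (0.876). gld-1 was most like F45F2.10 (0.884), pigv-1 (0.843) and patr-1 (0.837). For tra-2, tra-1, fem-1, fbf-1 and fbf-2 the closest genes were clec-190 (0.774), hmgs-1 (0.813), nhr-138 (0.798), C13B4.1 (0.806) and phb-1 (0.765). The choice depended on the measure. By Spearman's rank correlation clec-190, C13B4.1, phb-1, egg-3, F54D10.5, ubh-4, hop-1, mbtr-1 and patr-1 were not among the 3 genes closest to their regulator. Among the regulators, the pair most alike was fog-2 and gld-1 (0.809), followed by fem-3 and gld-1 (0.701), while fem-3 and tra-2 gave 0.06.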

How the data were processed

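Whole-animal RNA was measured in 18 libraries, 3 in each of 6 groups. The authors deposited 1 table of whole-number counts per gene, and its totals differ between libraries. The submitters' processing notes name RSEM, Bowtie2, DESeq2 and R 3.6.3 without saying what each was used for. Not given in the sources used here are the build, the annotation, the strand setting and the treatment of reads with several matches. Positions and exon lengths are from the WBcel235 annotation, joined by gene identifier.

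Counts were tested with edgeR 4.0.16 in R 4.3.3 (glmQLFit and glmQLFTest) on all 18 libraries, with 1 mean per group, TMM scaling, 12 residual degrees of freedom and the filterByExpr filter with a minimum count of 10. This kept 10981 genes, with a biological coefficient of variation of 17.1%. P-values were adjusted by Benjamini and Hochberg over these genes, and a gene is called below 0.05. The fit was tested on simulated counts. DESeq2 1.42.0, other scalings and filters, a replicate block and libraries left out were alternatives. Group floors are 3 counts, and intervals of count ratios are exact at 95%, for counting error only. The SE of each log2 change was derived from the edgeR test, as the absolute change divided by the square root of its F statistic. The 95% interval of the fem-1 log2 change is a normal approximation from that SE. The same replicate number was not treated as a pairing.

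All 10 regulators are named, with genes fixed by name from the lists, any called gene of the upstream and RNA regulator lists, and the 3 genes most like each regulator by Pearson's r. The regulators and lists were chosen with earlier results of these data known. The list genes she-1, mog-6 and opt-2 had no match. The within-library ratios and the sums of near-identical neighbours were added after seeing the data.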

Additional observations from a re-analysis of the deposited data

Results flagged for a closer look

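None of the 10 regulators met a rule for a closer look. Among the genes named beside them, edgeR called 4 for the difference of both responses to antimycin, that in nhr-45 against that in nhr-178. Over all tested genes 5.76% were called in this comparison, while 3 of 29 germline RNA regulators and 0 of 10 upstream genes were. The values, the log2 response in nhr-45 minus that in nhr-178, were -0.92 ± 0.26 for cpb-1 (SE, adjusted p = 0.0313), -0.66 ± 0.19 for prp-17 (adjusted p = 0.0303), -0.67 ± 0.20 for sygl-1 (adjusted p = 0.0461) and -0.76 ± 0.20 for cbd-1 (adjusted p = 0.0181). These calls depended on single libraries: of 12 fits that each left out 1 library, the call was kept in 4 for cpb-1, 7 for prp-17, 3 for sygl-1 and 8 for cbd-1. It was lost for all 4 under the scaling to general germline genes, and without the 2 shallowest libraries for prp-17, sygl-1 and cbd-1. In the fit of the compared groups alone it was lost for cpb-1 and sygl-1. The response of msp-59 was larger in nhr-45 than in WT, by 2.30 ± 0.56 (adjusted p = 0.0141). That call was kept in 9 of 12 fits that each left out 1 library, with adjusted p up to 0.0678. It was lost without replicate 1 or 3 of WT on DMSO or replicate 3 of WT on antimycin. In the same comparison 3 of 23 tested major sperm protein genes and 0 of 15 other spermatogenesis genes were called higher. Over all tested genes 4.68% were called, in either direction. The sperm lists were chosen with earlier results of these data known, so the msp-59 value is a description.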

How the results depend on the processing

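The count of 3 regulators called for antimycin in nhr-45 was 1 in the fit of the compared groups alone and 1 to 5 with single libraries left out (1 without replicate 1 of nhr-45 on DMSO or replicate 1 or 2 of nhr-45 on antimycin, and 5 without replicate 3 of nhr-45 on DMSO). Under the scaling to general germline genes none of the 3 was called, with changes of -0.23 for fog-2, -0.07 for fem-3 and -0.12 for tra-2. fem-1 and tra-1 were called higher there instead. Same-numbered libraries of different groups showed no shared effect, as the deviations of 45 same-numbered pairs had correlations of -0.0858 to 0.0872 and 0 were over 0.1. That check cannot show whether they were prepared together. With the replicate block the count for antimycin in nhr-45 was 3, and the block gave 0 called regulators in the other 9 comparisons, as without it. With no filter the count for nhr-45 against WT in antimycin was 1 (fog-3) in place of 0. In the other 8 comparisons the count stayed at 0 in every alternative run. Scaling to general germline genes raised the median log2 change of all tested genes by 0.46 in nhr-45, 0.23 in WT and 0.12 in nhr-178. That shift is part of every value under it. For antimycin in nhr-45, fem-1 (0.46), tra-1 (0.74), larp-1 (0.40) and mag-1 (0.42), not called with TMM scaling, were called higher under the germline scaling. fem-2 (0.056), sel-10 (0.028), gld-2 (0.035), gld-3 (0.024), nos-3 (0.011) and prp-17 (0.012), called lower with TMM scaling, lay just above zero with no call. Depth limits what can be said of fog-3, since a count of 0 in the shallowest library allows up to 1.61 CPM.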
